A study of Mus musculus with 6 samples.

Results

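Interferon-inducible genes are switched on by interferons, the secreted proteins that alert cells to viruses and other microbes. The set described here held 9 genes: the guanylate-binding protein genes Gbp7 and Gbp2, the tetratricopeptide repeat genes Ifit1, Ifit2 and Ifit3, the chemokine gene Cxcl10, the transcription factor genes Irf1 and Irf7, and the ubiquitin-like modifier gene Isg15. Every probe whose annotated symbol, current or older, was one of these genes was taken. That gave 8 probes for 8 genes out of 23466 probes in all, and Isg15 is not analysed here. Gbp7 was listed under its older symbol. The arrays measured RNA from untreated neural stem cells, multipotent progenitors of the brain, from C57BL6 mice at postnatal day 0, grown with bFGF, EGF and heparin. Cells were homozygous (2 arrays), heterozygous (2 arrays) or wild type (2 arrays) at Ecrg4, which encodes a secreted peptide precursor. The labels state neither how the Ecrg4 allele was made nor whether the 2 arrays of a genotype came from different mice or cultures. The p-values therefore reflect the spread from array to array, part or all of which may be technical. Gbp7, Cxcl10 and Ifit2 rose in homozygous relative to wild-type cells, Gbp7 also rose in heterozygous cells, and no tested member fell in any comparison. In RNA from whole cultures, more cells of a type and more RNA per cell cannot be told apart.

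Interferons act through receptors on the cell surface that signal by JAK kinases to transcription factors of the STAT and IRF families. Type I interferons work mainly through a STAT and IRF complex that binds the interferon-stimulated response element, while interferon-gamma works mainly through STAT dimers that bind the gamma-activated site. Neural progenitors carry receptors for both and respond to them in culture. The Ifit genes, Irf7 and Isg15 are classical type I targets, the guanylate-binding protein genes and Irf1 are classical interferon-gamma targets, and Cxcl10 answers to both and to NF-kB.

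Between 21740 and 22561 probes had a value on an array, and every array had a median intensity of 30. Ecrg4 read 1.4 and 1.3 in homozygous cells, 345.5 and 373.9 in heterozygous cells, and 112.9 and 154.9 in wild-type cells, so the homozygous label matched its probe, whose place relative to the altered part of the gene is not known here. The heterozygous cells read above the wild-type cells, and directions that involve these 2 genotypes refer to the arrays as labelled. Of 11 measured neural stem cell markers, 10 exceeded on all 6 arrays the level used here as a guide to background, and Prom1 lay under it on all 6. That level is the 95th percentile of 663 probes for olfactory receptors, genes of the nose, and lay between 50.5 and 57.6 on the 6 arrays. Arrays of 1 genotype correlated at r = 0.994 for homozygous, 0.993 for heterozygous and 0.989 for wild type across the 20434 probes measured on every array; probes are not independent replicates.

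The stretches just before the starts of the 3 genes that rose, and of Gbp2, the neighbour and relative of Gbp7, are shown because they are where response elements of this gene class often lie. Each holds the 250 bases before the RefSeq start and the 50 bases from it onward, 5′ to 3′ on the gene's strand, in build GRCm38.p6, and capitals mark matches to either motif. The windows are chr3:142530086-142530385 on the plus strand for Gbp7, chr3:142620413-142620712 on the plus strand for Gbp2, chr5:92348840-92349139 on the minus strand for Cxcl10 and chr19:34550444-34550743 on the plus strand for the first of 2 Ifit2 starts with a window. The RefSeq span of Ifit2 begins at chr19:34550550, inside that window and upstream of both starts, so bases before it were only partly searched.
Gbp7: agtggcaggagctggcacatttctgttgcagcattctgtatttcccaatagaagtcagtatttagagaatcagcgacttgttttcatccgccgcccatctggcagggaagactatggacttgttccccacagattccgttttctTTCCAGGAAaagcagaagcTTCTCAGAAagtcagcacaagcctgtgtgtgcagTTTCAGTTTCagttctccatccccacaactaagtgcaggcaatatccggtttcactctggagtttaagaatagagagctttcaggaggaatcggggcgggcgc
Gbp2: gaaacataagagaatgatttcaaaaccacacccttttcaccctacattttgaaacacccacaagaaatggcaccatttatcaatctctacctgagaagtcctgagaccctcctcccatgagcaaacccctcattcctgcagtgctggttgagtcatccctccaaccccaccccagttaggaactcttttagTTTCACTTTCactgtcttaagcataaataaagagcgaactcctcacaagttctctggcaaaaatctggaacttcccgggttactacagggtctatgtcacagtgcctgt
Cxcl10: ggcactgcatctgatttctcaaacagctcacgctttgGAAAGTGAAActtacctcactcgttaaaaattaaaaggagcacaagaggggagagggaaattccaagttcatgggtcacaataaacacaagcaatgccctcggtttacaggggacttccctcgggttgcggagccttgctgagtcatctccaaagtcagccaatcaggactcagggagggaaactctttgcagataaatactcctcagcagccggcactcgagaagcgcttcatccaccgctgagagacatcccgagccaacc
Ifit2: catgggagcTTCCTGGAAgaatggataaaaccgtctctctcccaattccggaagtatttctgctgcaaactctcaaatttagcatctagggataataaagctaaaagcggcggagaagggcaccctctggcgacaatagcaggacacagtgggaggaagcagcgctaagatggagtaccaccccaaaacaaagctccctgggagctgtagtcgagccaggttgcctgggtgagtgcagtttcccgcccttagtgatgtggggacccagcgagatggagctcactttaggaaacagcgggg

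The response element was searched as GAAA, any 2 bases and GAAA again, on either strand, and the gamma-activated site as TTCNNNGAA, which reads the same on both strands. The response element was present in 3.44% and the gamma-activated site in 8.3% of 32851 RefSeq promoter windows of the same length. All 9 genes had a window. Among them 6 held the response element (Gbp7, Gbp2, Ifit1, Ifit3, Cxcl10 and Isg15) and 3 held the gamma-activated site (Gbp7, Ifit2 and Irf1). In Gbp7 the response element spanned -53 to -44 relative to the start, with gamma-activated sites at -106 to -98 and -87 to -79. Gbp2 had its response element at -59 to -50, close to that of Gbp7, and Cxcl10 at -213 to -204. Neither Ifit2 window held the response element, and the window shown held a gamma-activated site at -241 to -233. In the windows shown the motifs did not overlap each other. The response element was found in 2 of the 3 genes that rose and also in Gbp2 and Ifit3, which did not pass the test; matched letters describe the sequence only.

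Of the guanylate-binding proteins, large GTPases that attack microbes inside the cell, Gbp7 changed and Gbp2 did not pass. Gbp7 read 85.3 and 63.1 in homozygous cells, 39.4 and 42.4 in heterozygous cells, and 10.4 and 8.5 in wild-type cells. The 3 genotypes did not overlap, and both homozygous arrays lay above the olfactory receptor level while the other 4 lay under it. Between homozygous and wild type the log2 difference was 2.96 ± 0.20 (SE of the limma fit, n = 2 arrays each, adjusted p = 0.00627). With the wild-type arrays set at the olfactory receptor level, Gbp7 was at least 1.33-fold higher in homozygous cells, a bound that allows nothing for the spread between arrays. The fitted difference shrank to 1.06 (adjusted p = 0.0196) when 50 was added to every intensity. The call ended without homozygous array 1 (adjusted p = 0.0845) or homozygous array 2 (0.0917), where the array left alone is assumed to vary like those of the other genotypes.

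In heterozygous cells Gbp7 was also higher than in wild type, with a log2 difference of 2.12 ± 0.20 (limma adjusted p = 0.0148). The olfactory receptor level exceeded all 4 of these arrays, so no fold is given. This call ended with 50 added to each intensity (0.61, adjusted p = 0.0915), and without heterozygous array 1 (0.0855), heterozygous array 2 (0.109) or wild-type array 1 (0.0732). Homozygous cells exceeded heterozygous cells by 0.84 ± 0.20, which did not pass (limma adjusted p = 0.101), with a 95% interval of 0.35 to 1.34 on the log2 scale of deposited intensity. This difference passed with an intensity trend and robust prior (limma adjusted p = 0.0348). It also passed when only probes whose highest genotype mean exceeded the olfactory receptor level were tested (0.0292). Gbp7 entered that filter only through its homozygous arrays, so that setting is not an independent check.

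Gbp2 read 59.3 and 57.1 in homozygous cells, 80.1 and 61.3 in heterozygous cells, and 42.0 and 72.9 in wild-type cells. Its wild-type arrays lay on both sides of the homozygous arrays. The log2 difference was 0.07 ± 0.29 between homozygous and wild type (95% interval -0.62 to 0.76, limma adjusted p = 0.915) and 0.34 ± 0.29 between heterozygous and wild type (adjusted p = 0.594). Both changed sign without wild-type array 1, to -0.33 and -0.06. Between homozygous and heterozygous it was -0.27 ± 0.29 (adjusted p = 0.673). The within-genotype SD of Gbp2, 0.36 on the log2 scale, was larger than that of 93.2% of probes of like level, so a moderate difference was hard to detect for it.

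Gbp7 and Gbp2 lie in 1 cluster on mouse chromosome 3, at chr3:142530336-142550151 and chr3:142620663-142638008. Of the relatives between or beside them, Gbp5 lay between 58.8 and 60.6 in homozygous, 52.6 and 61.1 in heterozygous, and 61.9 and 62.4 in wild-type cells. Gbp2b lay between 6.3 and 6.7 in homozygous, 5.8 and 6.6 in heterozygous, and 8.0 and 9.5 in wild-type cells. The probes may not fully separate these related transcripts, since their sequences were not used here. Ecrg4 itself is on chromosome 1, which holds none of the 9 genes.

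**Figure D1:**
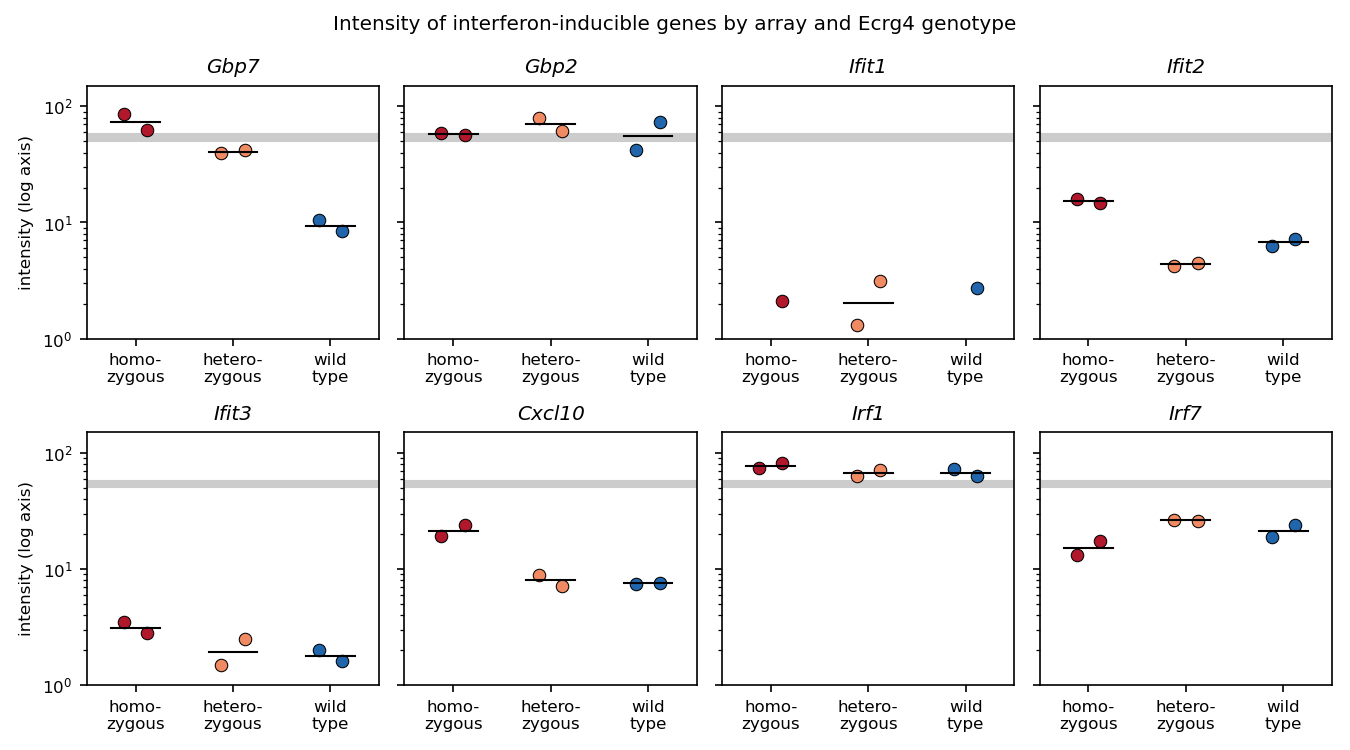
Intensity on a log axis (vertical) of the 8 interferon-inducible genes with a probe, by Ecrg4 genotype, 1 point per array; black lines are geometric means of 2 arrays and the grey band is the range of the olfactory receptor level, 50.5 to 57.6. Gbp7 separates the 3 genotypes, Ifit2 and Cxcl10 are highest in the homozygous arrays but lie under the band, and Ifit1 lacks a value on 2 arrays.

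Of the Ifit genes, whose proteins bind viral RNA or each other and block viral translation, Ifit2 rose in homozygous cells. It read 16.0 and 14.6 in homozygous cells, 4.2 and 4.5 in heterozygous cells, and 6.3 and 7.2 in wild-type cells. The homozygous arrays were the highest and the heterozygous arrays the lowest, with no overlap among the 3 genotypes. All 6 arrays lay under the olfactory receptor level, and between 20.1% and 22.4% of olfactory receptor probes were brighter on the homozygous arrays, against 54.8% to 59.4% on the heterozygous and 42.1% to 44.4% on the wild-type arrays. Differences of such probes are therefore differences in deposited intensity, from which no fold of the transcript is drawn.

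The log2 difference of Ifit2 was 1.18 ± 0.15 between homozygous and wild type (limma adjusted p = 0.0364, n = 2 arrays each) and 1.81 ± 0.15 between homozygous and heterozygous (adjusted p = 0.00687). Between heterozygous and wild type it was -0.63 ± 0.15 and did not pass (adjusted p = 0.193). Its within-genotype SD was 0.10, smaller than the median of 0.27 over 2662 probes of like level, and only 5.8% of those had a smaller one. Against wild type the call ended with 50 added to each intensity (0.20, limma adjusted p = 0.0593), with blank cells kept (0.0536) and with only the arrays compared (0.0915). In any comparison, here and below, leaving out an array of the genotype not compared repeats the fit of only the arrays compared. It is not a separate check. The call against wild type also ended without either homozygous or either wild-type array, where the log2 difference lay between 1.09 and 1.28. Against heterozygous it ended without homozygous array 1 (0.0829) or 2 (0.0787) or heterozygous array 1 (0.0562) or 2 (0.0525), and the difference was 0.26 with 50 added.

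Ifit3, at chr19:34583119-34588982 next to Ifit2 at chr19:34550550-34576534, read 3.5 and 2.8 in homozygous cells, 1.5 and 2.5 in heterozygous cells, and 2.0 and 1.6 in wild-type cells. These values lay between the 2.6 and 13.4 percentiles of their arrays. The homozygous arrays were again the highest, but the log2 differences of 0.81 ± 0.28 from wild type (limma adjusted p = 0.205) and 0.69 ± 0.28 from heterozygous (adjusted p = 0.268) did not pass. Between heterozygous and wild type it was 0.11 ± 0.28 (adjusted p = 0.872). Ifit3 has a near-identical copy, Ifit3b, in the same cluster, which its probe may not separate. Ifit1 read 2.1 on homozygous array 2, 1.3 and 3.1 on the heterozygous arrays, and 2.7 on wild-type array 2, with homozygous array 1 and wild-type array 1 blank. With the blank arrays left out of its fit, the 3 log2 differences of Ifit1 lay between -0.43 and 0.06 (limma adjusted p of 0.768 to 0.968).

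Cxcl10 encodes a chemokine that draws activated T cells. It read 19.3 and 23.8 in homozygous cells, 8.9 and 7.2 in heterozygous cells, and 7.4 and 7.6 in wild-type cells. The homozygous arrays stood apart, and those of the other genotypes overlapped. The log2 difference was 1.51 ± 0.18 between homozygous and wild type (limma adjusted p = 0.0294) and 1.42 ± 0.18 between homozygous and heterozygous (adjusted p = 0.0201). Heterozygous and wild-type cells differed by 0.09 ± 0.18 (adjusted p = 0.831), a 95% interval of -0.35 to 0.54. As with Ifit2, all 6 arrays lay under the olfactory receptor level, and with 50 added to each intensity the differences were 0.31 and 0.30, still past the threshold. Against wild type the call ended with only the arrays compared (limma adjusted p = 0.0589), a fit that leaving out either heterozygous array repeats. The call also ended without either homozygous or either wild-type array, where the log2 difference lay between 1.36 and 1.67. Against heterozygous it ended without homozygous array 1 (0.105) or 2 (0.168) or heterozygous array 1 (0.0707) or 2 (0.118).

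The interferon regulatory factors are the members that act upstream of the others. Irf1, induced by interferon-gamma and an activator of further targets, read 74.1 and 81.6 in homozygous cells, 63.4 and 71.4 in heterozygous cells, and 72.1 and 63.1 in wild-type cells. The homozygous arrays were the highest by a small margin, the others overlapped, and all 6 lay above the olfactory receptor level. Its log2 difference was 0.21 ± 0.16 between homozygous and wild type, with a 95% interval of the ratio from 0.881 to 1.51 (limma adjusted p = 0.52). It was 0.21 ± 0.16 between homozygous and heterozygous (adjusted p = 0.547) and 0.00 ± 0.16 between heterozygous and wild type (adjusted p = 0.993).

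Irf7, which drives production of type I interferon, read 13.2 and 17.3 in homozygous cells, 26.4 and 26.1 in heterozygous cells, and 19.0 and 23.9 in wild-type cells. Here the homozygous arrays were the lowest, opposite to Gbp7, Ifit2 and Cxcl10, and no array reached the olfactory receptor level. The log2 difference of Irf7 was -0.50 ± 0.20 between homozygous and wild type (limma adjusted p = 0.252) and -0.80 ± 0.20 between homozygous and heterozygous (adjusted p = 0.108). It was 0.30 ± 0.20 between heterozygous and wild type (adjusted p = 0.518), and none of these passed.

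**Figure D2:**
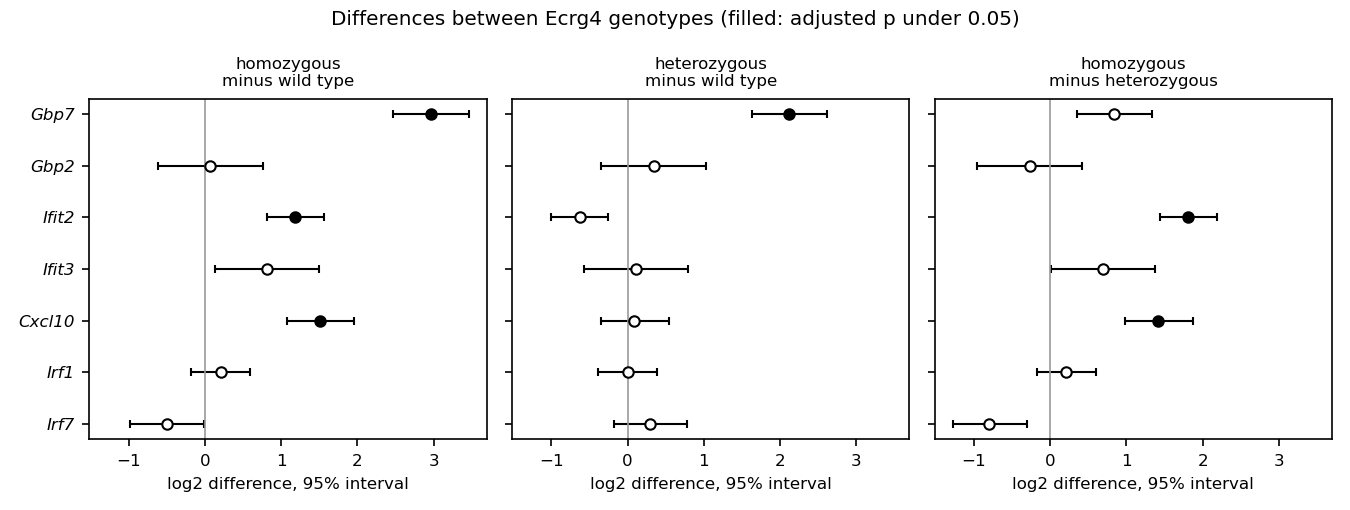
Log2 difference between Ecrg4 genotypes (horizontal, with 95% interval of the limma fit) for the 7 interferon-inducible genes tested; filled points passed an adjusted p of 0.05. Gbp7, Ifit2 and Cxcl10 passed between homozygous and wild type at 2.96, 1.18 and 1.51, Gbp7 alone between heterozygous and wild type, and Ifit2 and Cxcl10 between homozygous and heterozygous.

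Over the 7 members tested, 3 rose and 0 fell between homozygous and wild type, against 0.431% of all 20434 probes that rose and 0.489% that fell. The count over members was 0 without either homozygous array and 1, Gbp7, without any 1 of the other 4 arrays. Between heterozygous and wild type 1 rose and 0 fell (0.411% and 0.338% of all probes), and the count was 0 without either heterozygous array or wild-type array 1. Between homozygous and heterozygous 2 rose and 0 fell (1.26% and 1.43% of all probes), and the count was 0 without any 1 of the homozygous or heterozygous arrays. The comparisons share arrays and are not independent of each other. The members were chosen with earlier results of these data known, so their counts beside the shares of all probes are descriptive only.

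Between homozygous and wild type the median log2 difference of the 7 members was 0.81 (0.02 over all probes). It was 0.11 (-0.01) between heterozygous and wild type and 0.69 (0.04) between homozygous and heterozygous. Each median is the value of Ifit3, which did not pass and read no higher than 3.5. Between homozygous and wild type the members ranged from -0.5 (Irf7) to 2.96 (Gbp7). With 50 added to each intensity, that difference of Ifit3 shrank to 0.04. The homozygous arrays lay wholly above the wild-type arrays for 5 members and wholly below them for 1, arrangements found for 25.7% and 24.8% of all probes. The heterozygous arrays lay wholly above the wild-type arrays for 2 members and below them for 1 (21.0% and 24.5% of all probes). The homozygous arrays lay wholly above the heterozygous arrays for 5 members and below them for 2 (28.7% and 25.9%). Among the 10539 probes under the olfactory receptor level on all 6 arrays, 0.323% rose between homozygous and wild type. Among the 9895 others 0.546% did. These shares were 0.285% and 0.546% between heterozygous and wild type, and 1.23% and 1.28% between homozygous and heterozygous. A probe lifted past the level by its rise counts among the others, so these shares cannot say whether dim probes pass more easily.

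Other genes of the pathway were read in lists. Of 13 receptors and signal transducers tested (JAK kinases, receptor chains, STAT and IRF factors and inhibitors), none passed in any of the 3 comparisons by limma, with 1, 1 and 5 of 13 at an unadjusted p under 0.05. Across all probes 19.0%, 13.5% and 18.2% lay under that unadjusted threshold in the same order (homozygous against wild type, heterozygous against wild type, homozygous against heterozygous). Their median log2 differences were 0.03 between homozygous and wild type, 0.09 between heterozygous and wild type and -0.03 between homozygous and heterozygous. Here 8 of the 13 lay above the olfactory receptor level on all 6 arrays.

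Among 11 nucleic acid sensors and adaptors, which start interferon production, none passed against wild type (3 of 11 in homozygous and 1 of 11 in heterozygous cells had an unadjusted limma p under 0.05, against 19.0% and 13.5% of all probes), and Sting1, the adaptor of cytosolic DNA sensing, rose between homozygous and heterozygous. Sting1 read 281.0 and 386.0 in homozygous cells, 104.6 and 142.8 in heterozygous cells, and 130.0 and 131.0 in wild-type cells, all above the olfactory receptor level. Its log2 difference from heterozygous was 1.43 ± 0.23 (limma adjusted p = 0.0355), and the call ended without any 1 of the 6 arrays (0.0562 to 0.226). The medians of the list were 0.08, 0.00 and 0.10 in the order of the comparisons above.

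Among 19 other type I interferon-induced genes, such as the Oas and Mx genes, 1 rose, Ifitm3 in heterozygous cells. Ifitm3, which blocks entry of viruses at the membrane, read 695.0 and 690.9 in homozygous cells, 1150.9 and 1314.5 in heterozygous cells, and 262.3 and 364.4 in wild-type cells. It was highest in the heterozygous arrays, unlike any member that passed. The log2 difference between heterozygous and wild type was 1.99 ± 0.20 (limma adjusted p = 0.0159), and the call ended without any 1 array other than wild-type array 2 (0.0687 to 0.124). None of the 19 passed in the other 2 comparisons (limma; 3 of 19 between homozygous and wild type and 7 of 19 between homozygous and heterozygous at an unadjusted p under 0.05, against 19.0% and 18.2% of all probes). The medians were 0.08, 0.17 and -0.14, and 14 of the 19 lay under the olfactory receptor level on all 6 arrays.

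Among 21 other interferon-gamma-induced genes, Irgm1 and Gbp4 rose between homozygous and wild type and none passed between heterozygous and wild type (limma; 8 of 21 at an unadjusted p under 0.05, against 13.5% of all probes). Irgm1, a GTPase of the immunity-related family, read 95.1 and 68.5 in homozygous cells, 39.7 and 41.2 in heterozygous cells, and 28.5 and 26.6 in wild-type cells, in the same order as Gbp7. Its log2 difference from wild type was 1.55 ± 0.19 (limma adjusted p = 0.0321), or 0.76 with 50 added to each intensity, and the call ended without any 1 of the 6 arrays (0.0634 to 0.184).

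Gbp4, a further guanylate-binding protein gene, had 2 probes here, the first listed as Gbp4 and the second as Mpa2, a symbol updated to Gbp4. Whether both measure the same gene was not checked. The first read 287.7 and 249.9 in homozygous cells, 56.1 and 47.0 in heterozygous cells, and 126.9 and 107.1 in wild-type cells. Its log2 difference was 1.20 ± 0.18 between homozygous and wild type (limma adjusted p = 0.0484), which ended without any 1 of the 6 arrays (0.0679 to 0.307). Between homozygous and heterozygous it was 2.38 ± 0.18 (adjusted p = 0.00437), which ended without homozygous array 1 (0.0642) or 2 (0.0595). The second probe, listed as Mpa2 and between 12.5 and 22.9 on the 6 arrays, gave 0.42 ± 0.25 and 0.32 ± 0.25. It did not pass (limma adjusted p = 0.405 and 0.558). The medians of the list were -0.05, -0.21 and 0.07.

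Of 9 measured NF-kB-induced genes, a pathway that also acts on Cxcl10, none passed against wild type (limma; 3 of 9 in homozygous and 4 of 9 in heterozygous cells at an unadjusted p under 0.05, against 19.0% and 13.5% of all probes). The monocyte chemokine gene Ccl2 rose between homozygous and heterozygous. It read 306.7 and 320.0 in homozygous cells, 127.9 and 129.4 in heterozygous cells, and 374.1 and 264.3 in wild-type cells. Its log2 difference from heterozygous was 1.28 ± 0.20 (limma adjusted p = 0.0327), and the call ended without homozygous array 1 (0.195) or 2 (0.227) or heterozygous array 1 (0.133) or 2 (0.158). The medians of the list were -0.01, -0.08 and 0.01.

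**Figure D3:**
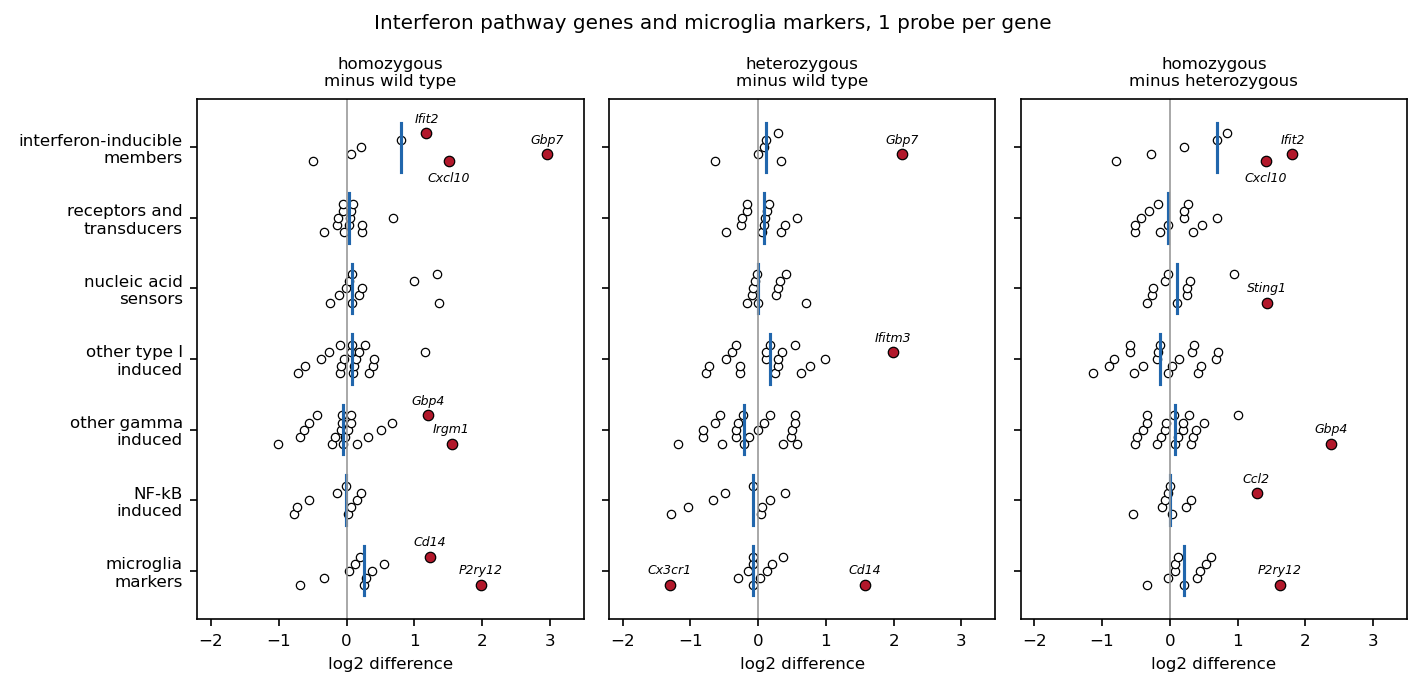
Log2 difference between Ecrg4 genotypes (horizontal) for each tested gene of the interferon-inducible set, of 5 related lists and of the microglia markers, 1 probe per gene; red points passed an adjusted p of 0.05 and blue lines are list medians. Between homozygous and wild type the median of the interferon-inducible genes, 0.81, is the value of Ifit3, which did not pass. Medians of the 5 related lists lie between -0.05 and 0.08. Members and lists were chosen with earlier results of these data known, so setting them side by side is not a test.

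Microglia, the resident macrophages of the brain, express many interferon-inducible genes, and their markers were read beside the members. Of 11 markers tested, P2ry12 and Cd14 rose between homozygous and wild type. P2ry12, a purine receptor gene, read 12.4 and 10.6 in homozygous cells, 3.1 and 4.5 in heterozygous cells, and 3.0 and 2.8 in wild-type cells (1.98 ± 0.22 against wild type, limma adjusted p = 0.0221; 1.62 ± 0.22 against heterozygous, adjusted p = 0.0218). The homozygous arrays were the highest for P2ry12, as they were for Ifit2 and Cxcl10. With 50 added to each intensity both calls of P2ry12 ended (0.22, adjusted p = 0.0583, and 0.19, adjusted p = 0.0699). They also ended without either homozygous array (0.141 to 0.184), the first without wild-type array 1 (0.0910) or 2 (0.0576), and the second without heterozygous array 1 (0.0812) or 2 (0.0524).

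Cd14, which encodes a receptor of bacterial lipopolysaccharide, read 12.5 and 15.3 in homozygous cells, 17.3 and 17.5 in heterozygous cells, and 6.4 and 5.4 in wild-type cells. It was higher than in wild type in both (homozygous 1.23 ± 0.17, limma adjusted p = 0.0445; heterozygous 1.57 ± 0.17, adjusted p = 0.0220). The calls ended without any 1 array (0.0635 to 0.271; 0.0717 to 0.159), except the second without wild-type array 2, and with 50 added (0.19 and 0.27, adjusted p = 0.0798 and 0.0944). Cx3cr1, the fractalkine receptor gene, read 5.4 and 6.7 in homozygous cells, 3.7 and 4.2 in heterozygous cells, and 9.6 and 9.8 in wild-type cells. It fell between heterozygous and wild type (-1.30 ± 0.17, limma adjusted p = 0.0374), which ended without any 1 array (0.0619 to 0.170) and with 50 added (-0.15, adjusted p = 0.202).

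Of the 11 markers, 10 lay under the olfactory receptor level on all 6 arrays, and Csf1r passed it on 1 array, at 62.4. The summed intensity of the list was 224 and 249 in homozygous cells, 224 and 193 in heterozygous cells, and 185 and 228 in wild-type cells, which overlap. The mean of the centred log2 values, in which each marker counts alike, was 0.17 and 0.30 in homozygous cells, -0.02 and -0.18 in heterozygous cells, and -0.27 and 0.00 in wild-type cells. On this measure the homozygous arrays lay above the others. P2ry12 had the largest rise of the list from wild type (1.98), and the separation of the means may rest on this 1 dim probe. It is therefore not read as a rise of the list as a whole. Between homozygous and wild type 9 of 11 markers were above 0 with a median of 0.26. In that comparison 4 of 11 had an unadjusted limma p under 0.05 (19.0% of all probes). Of these 4, P2ry12, Cd14 and C1qc were higher and Cx3cr1 was lower (-0.69) in homozygous cells. The medians were -0.07 between heterozygous and wild type and 0.21 between homozygous and heterozygous, with 2 and 3 of 11 under that threshold (13.5% and 18.2% of all probes). Itgam had a value on 1 array, at 2.6, and Ptprc and C1qa read no higher than 3.9 on the 5 arrays where each had a value. The part of such cells in the differences of the members was not tested.

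Of 6 endothelial markers none passed (limma; 1, 2 and 0 of 6 at an unadjusted p under 0.05, against 19.0%, 13.5% and 18.2% of all probes), and their summed intensity was 146 and 102 in homozygous cells, 99 and 81 in heterozygous cells, and 158 and 221 in wild-type cells. Of 10 fibroblast and mural markers, 7 lay under the olfactory receptor level on all 6 arrays. Between homozygous and wild type 0 of 10 were above 0, with a median log2 difference of -0.74. The medians were -0.09 between heterozygous and wild type and -0.2 between homozygous and heterozygous. In the same order 3, 4 and 2 of 10 had an unadjusted limma p under 0.05. The sum over the 10 markers was 252 and 263 in homozygous cells, 544 and 565 in heterozygous cells, and 1456 and 1178 in wild-type cells, the order opposite to that of Gbp7. Without Acta2 the sum was 164 and 144 in homozygous cells, 266 and 280 in heterozygous cells, and 227 and 283 in wild-type cells, so the heterozygous and wild-type arrays then overlapped. Thy1, a surface glycoprotein gene also expressed by neurons, read 43.5 and 21.4 in homozygous cells, 115.9 and 155.0 in heterozygous cells, and 44.9 and 76.3 in wild-type cells, and was highest in the heterozygous arrays. Tagln read 14.1 and 18.9 in homozygous cells, 31.4 and 19.3 in heterozygous cells, and 71.3 and 50.1 in wild-type cells. Its log2 difference between homozygous and wild type was -1.87 ± 0.31, which did not pass (limma adjusted p = 0.0578). Most of the sum over the 10 markers in wild-type cells was Acta2, the smooth muscle actin gene, which read 88.0 and 118.5 in homozygous cells, 277.5 and 284.6 in heterozygous cells, and 1229.5 and 894.8 in wild-type cells. Acta2 fell in all 3 comparisons (-3.36 ± 0.22, -1.90 ± 0.22 and -1.46 ± 0.22, limma adjusted p = 0.00583, 0.0264 and 0.0325). Each of these calls ended without some arrays, the first without either homozygous array (0.0845 and 0.0917), the second without any 1 array but wild-type array 2 (0.0717 to 0.164), and the third without any 1 homozygous or heterozygous array (0.128 to 0.197). The part of such cells in the results was not tested.

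The profiles nearest to each member that passed were found among 14733 other named probes, as the smallest root mean square difference of log2 values centred over the 6 arrays. For Gbp7 they were Apoa2 (0.38), Tagln2 (0.39) and Cd36 (0.43), a measure that grows with the size of the change and so is not compared between members. Apoa2, an apolipoprotein gene, read 66.0 and 78.5 in homozygous cells, 42.6 and 43.0 in heterozygous cells, and 16.5 and 14.1 in wild-type cells, which separated the genotypes in the order of Gbp7. For Cxcl10 they were St6gal1 (0.13), Elavl4 (0.17) and Bmpr1b (0.20). St6gal1, a sialyltransferase gene, read 387.4 and 369.7 in homozygous cells, 156.6 and 130.1 in heterozygous cells, and 116.2 and 130.4 in wild-type cells. For Ifit2 they were Dnah8 (0.12), Bricd5 (0.14) and Cnih3 (0.16), and Dnah8 read 531.3 and 497.2 in homozygous cells, 138.3 and 167.1 in heterozygous cells, and 246.9 and 292.1 in wild-type cells. None of the 9 nearest genes belonged to the interferon lists used here. Those lists hold few of the 14733 probes searched, so this count says little about the pathway.

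**Figure D4:**
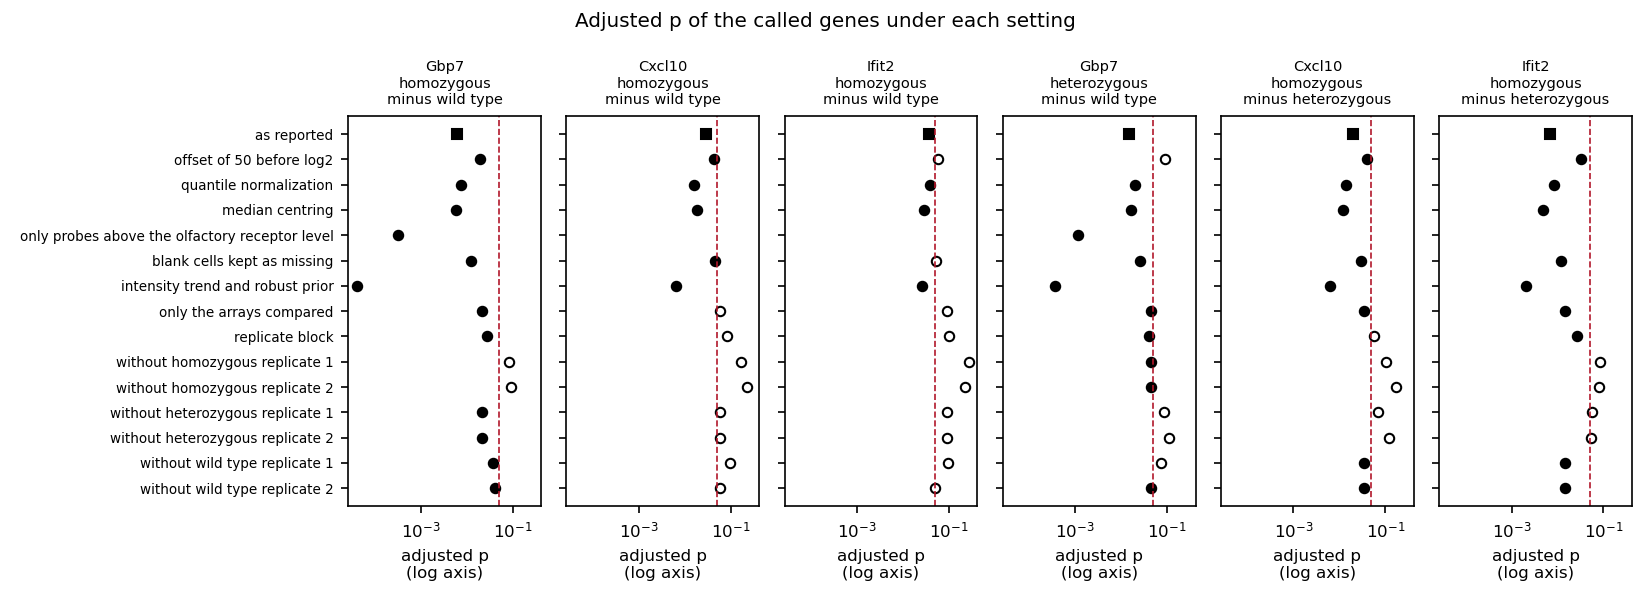
Adjusted p on a log axis (horizontal) of the 6 calls made among the interferon-inducible genes, as reported (squares) and under each of 14 other settings (circles); filled symbols lie below the dashed threshold of 0.05. Every call ended without either homozygous array, except Gbp7 between heterozygous and wild type, which ended without either heterozygous array or wild-type array 1.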

How the data were processed

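The values the authors deposited are linear intensity readings of 1-colour arrays, scaled so that every array has the same median over its measured probes, as the values show. For the scanner, the background correction and the reason some cells are blank, the steps taken are not stated in the labels. Per the labels' protocols, RNA was purified on RNeasy columns and amplified to aRNA; the labels name both biotin and a coupled dye.

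Intensities were log2-transformed with no offset. The 20434 probes measured on every array entered 1 model (limma 3.58.1, run in R 4.3.3) with a coefficient per genotype, moderated by eBayes (3 residual and 3.27 prior degrees of freedom). Tests were two-sided, with Benjamini-Hochberg adjustment over all probes tested and a threshold of 0.05. A gene was called where any of its probes passed. Errors are standard errors of the fit, whose precision is limited by the number of arrays. The fit was tested on simulated data. The platform annotation gave 16625 probes 1 gene symbol, 0 several and 6841 none. Older symbols were updated through a RefSeq table of GRCm38.p6, which also gave positions; promoter sequences are RefSeq's.

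The members, gene lists and the background guide were chosen with earlier results of these data known. Named genes were the members, up to 3 passing genes per list, direction and comparison, and the 3 nearest profiles per called member. Gbp5 and Gbp2b were added for their position. Prom1, C1qc, Csf1r, Itgam, Ptprc, C1qa, Thy1, Tagln and the genes near the threshold did not pass and were named for their values. Lists covered receptors and transducers, sensors, type I, interferon-gamma and NF-kB targets, and stem cell, microglia, endothelial and fibroblast or mural markers. Alternatives changed the offset, scaling, dim-probe filter, blank cells, prior, arrays fitted, replicate block and each array in turn.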

Additional observations from a re-analysis of the deposited data

How the results depend on the processing

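The number of arrays, 2 per genotype, and dim signal limit these results: 4 of 7 members tested lay under the olfactory receptor level on all 6 arrays. The setting with only probes above that level kept a probe if the mean of any genotype exceeded it. Gbp7 entered that setting only through its homozygous arrays, so its calls there are not an independent check. The count of members called between homozygous and wild type, 3 as reported, was 1 with only probes above that level (3 members tested), 1 with only the arrays compared and 0 to 1 without 1 array. Between heterozygous and wild type, 1 as reported, it was 0 with an offset of 50 before log2 and 0 to 1 without 1 array. Between homozygous and heterozygous, 2 as reported, it was 1 with only probes above the level (Gbp7, not Cxcl10 or Ifit2) and 0 to 2 without 1 array. In the same order the probes called, 188, 153 and 549 as reported, were 787, 139 and 982 with the offset, 877, 219 and 1016 with only probes above the level, 1094, 400 and 1357 with a robust prior that follows intensity, and 59, 40 and 680 with only the arrays compared. Between homozygous and wild type they were 328 with quantile normalization, 314 with median centring and 98 with blank cells kept. Without 1 array they ranged from 1 to 224, from 18 to 340 and from 6 to 680. The causes were not tested, beyond the fewer probes or arrays that some settings leave.

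With the replicate block, 1 member was called in each comparison (Gbp7, Gbp7 and Ifit2) and 47, 51 and 244 probes. Deviations of same-numbered arrays correlated at -0.08, 0.02 and 0.01 across probes, so no broad effect shared by the numbers in the titles was seen. Whether those numbers pair cultures is not known here.

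Fits without an array of the genotype not compared repeat the fit of only the arrays compared, and each repeat is counted here. Of 622 log2 differences of single genes under the alternatives, 464 kept their direction and side of the threshold, 127 no longer passed, 24 newly passed and 7 changed sign. The last were all of differences that did not pass: Gbp2 without wild-type array 1 (-0.33 against wild type in homozygous and -0.06 in heterozygous cells), and, between heterozygous and wild type, Ifit3 without heterozygous array 2 (-0.25) or wild-type array 2 (-0.05), Cxcl10 without heterozygous array 1 (-0.06) and Irf1 without heterozygous array 1 (0.08) or wild-type array 1 (0.09). Over the 6 fits without 1 array, Gbp2 ranged from -0.33 to 0.47 and from -0.06 to 0.74, Ifit3 from -0.25 to 0.48, Cxcl10 from -0.06 to 0.25 and Irf1 from -0.1 to 0.09.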

Other observations

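Of the genes in the 5 related lists, 11 lay between the threshold and an adjusted p of 0.15 between homozygous and wild type, 6 of them higher and 5 lower in homozygous cells; this range was chosen after the values were seen. None passed, so these are values only, with the range of the limma adjusted p over 13 or 14 alternatives beside each.

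On the higher side were sensors, an adaptor, a receptor chain, an antiviral gene and a peptide transporter gene. Cgas, the cytosolic DNA sensor that signals to Sting1, read 10.0 and 11 in homozygous cells and 3.4 and 4.9 in wild-type cells (1.36 ± 0.22 on the log2 scale, limma adjusted p = 0.0578; 0.0294 to 0.317). Sting1 itself differed by 1.34 ± 0.23 (adjusted p = 0.0639; 0.0045 to 0.317) and Ifitm3 by 1.16 ± 0.20 (adjusted p = 0.0648; 0.00406 to 0.338). Tap1, a peptide transporter gene of antigen presentation, differed by 0.67 ± 0.15 (adjusted p = 0.107; 0.0536 to 0.437). Ifngr2, a chain of the interferon-gamma receptor, differed by 0.69 ± 0.18 (adjusted p = 0.132; 0.0374 to 0.461) and Tlr3, a sensor of double-stranded RNA, by 1.0 ± 0.27 (adjusted p = 0.146; 0.0665 to 0.497). The Cgas, Tap1 and Tlr3 probes lay under the olfactory receptor level on all 6 arrays.

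On the lower side were an immunoproteasome subunit, 2 antiviral genes and 2 genes of the NF-kB list. The subunit gene Psmb9 read 33.8 and 26.0 in homozygous cells and 52.4 and 68.1 in wild-type cells (-1.01 ± 0.21, limma adjusted p = 0.0864; 0.0172 to 0.369). Rsad2, the gene for the antiviral enzyme viperin, read 110.4 and 102.6 in homozygous cells and 163.1 and 162.5 in wild-type cells (-0.61 ± 0.15, adjusted p = 0.116; 0.0285 to 0.425). Bst2, which tethers budding viruses, differed by -0.72 ± 0.19 (adjusted p = 0.132; 0.0520 to 0.442). Nfkb2, an NF-kB subunit gene, differed by -0.78 ± 0.20 (adjusted p = 0.126; 0.0361 to 0.471) and the chemokine gene Ccl7 by -0.73 ± 0.18 (adjusted p = 0.128; 0.0597 to 0.470). The Bst2 and Ccl7 probes lay under the olfactory receptor level on all 6 arrays.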
